A study of Mus musculus with 4 samples.

Results

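IL-17 receptor chains and the adaptors they use were followed as 10 genes of the 25630 rows in the deposited table: 5 receptor chains (Il17ra, Il17rb, Il17rc, Il17rd and Il17re), the adaptor gene Traf3ip2, which encodes Act1, and 4 TRAF genes (Traf2, Traf3, Traf5 and Traf6). The rule was a match of the symbol, and all 10 were found, each in 1 row. RNA came from BEKO, labelled a thymic lymphoma cell line of mouse with WT genotype, in 2 low density and 2 high density libraries. The labels give no cell number, medium, culture time or treatment for either density, so a group stands only for a density of this line. No label ties the 2 libraries of a density to separate cultures, and a p-value here reflects the spread of these libraries alone, which may be technical. Values are TPM, levels scaled by transcript length and to a total of 1000000 per library, so that different genes of a library can be set side by side. The number of reads behind a value is unknown.

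The IL-17 receptors are paired chains that carry a shared cytoplasmic fold, the SEFIR domain. IL-17RA is the common chain. With IL-17RC it binds IL-17A and IL-17F, with IL-17RB it binds IL-25, and with IL-17RE it binds IL-17C, while IL-17RD is a further partner. The SEFIR domain recruits Act1, a ubiquitin ligase that also has this fold. Act1 engages TRAF6 on the way to NF-κB, engages TRAF2 and TRAF5 for the stabilisation of target mRNAs, and is restrained by TRAF3, which competes for the receptor. IL17RA is the receptor chain named in the title of the series, which concerns its contact with Vδ7 T cell receptors in γδ T cells.

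The chains fell into a pair with high RNA, Il17ra and Il17rb, and a trio near or under 1 TPM. Promoters (250 bases before to 50 after the start of the gene) were taken from RefSeq in build GRCm38.p6, another build than the mm9 of the submitters' processing notes, and 8 of the 10 genes matched. Il17ra and Traf3ip2 had no entry. The promoters of Il17rb and Il17rc are shown because these genes encode alternative partners of IL-17RA and stood far apart in RNA level. Each is written 5′ to 3′ on the strand of the gene, with CpG dinucleotides in capitals. Il17rb lies at chr14:30008847-30009146 on the minus strand and Il17rc at chr6:113471205-113471504 on the plus strand.
Il17rb: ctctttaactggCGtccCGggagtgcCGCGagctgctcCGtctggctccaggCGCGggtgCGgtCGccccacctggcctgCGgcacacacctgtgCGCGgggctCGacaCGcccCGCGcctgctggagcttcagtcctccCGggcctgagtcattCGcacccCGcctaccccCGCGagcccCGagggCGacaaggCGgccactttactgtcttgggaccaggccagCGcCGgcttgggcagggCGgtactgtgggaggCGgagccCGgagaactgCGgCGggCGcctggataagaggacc
Il17rc: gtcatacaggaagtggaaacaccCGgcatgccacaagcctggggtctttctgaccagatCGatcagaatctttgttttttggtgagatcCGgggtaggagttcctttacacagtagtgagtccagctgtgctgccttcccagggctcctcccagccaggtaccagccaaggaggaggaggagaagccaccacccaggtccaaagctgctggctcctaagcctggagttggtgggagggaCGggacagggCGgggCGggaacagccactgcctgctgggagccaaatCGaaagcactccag

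The Il17rb promoter held 32 CpG dinucleotides, more than 90.5% of the 32851 mouse promoters in the table. That of Il17rc held 7, which is the median of all promoters, and that of Il17re, the gene with the lowest RNA, held 3. Il17rd, also weakly expressed, held 19, the same number as Traf6, so the count did not order the genes by level. Among the TRAF genes it was 28 for Traf2, 17 for Traf5 and 59 for Traf3. Motifs were searched on both strands. The GC box GGGCGG was found in 7 of the 8 matched promoters (all but Il17re) and in 35.7% of all promoters. ACGTG, a form of the core of the hypoxia response element and also part of the E-box CACGTG, was found in 1 of the 8, Traf6, and in 19.6% of all. TATAAA was found in 0 of the 8 (13.6% of all) and CCGGAA, a form of the ETS site, in 1, Traf3 (14.9% of all). A match describes these letters only, and other forms of these motifs were not searched.

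The label of a T lineage line was checked against markers. All 10 T cell genes listed were expressed, with a summed level of 7614 to 8253 TPM and the lowest, Cd247, at 71.0 TPM on average. Of the B cell genes Ms4a1 and Cd79b were listed at 0 in all libraries, as were Lyz2 and C1qa of macrophages, Dcn and Lum of fibroblasts, Epcam and Krt18 of epithelium, Cdh5 of endothelium, and Hba-a1 and Hbb-b1 of erythroid cells. Other genes of these lists were above 0. Among them were Cd79a (0.235 to 1.15 TPM), Krt5 (0.213 to 0.75 TPM), Cdh1 (up to 0.373 TPM) and Tek (0.0833 to 0.845 TPM). Alas2 of the erythroid list was at 4.34 TPM in low density library 1 and between 0.749 and 1.19 TPM in the others. Pecam1 and Cd68, which leukocytes can also express, averaged 49.9 and 12.6 TPM. The 6 fibroblast genes summed to 45.0 TPM in low density library 1 and to between 0.33 and 0.673 TPM in the other libraries. Nearly all of this was Col1a1 (30.3 TPM) and Col1a2 (14.5 TPM), and the granulocyte gene S100a9 was at 7.36 TPM in that library and listed at 0 in the others. Mpo (0.588 TPM) and Elane (0.513 TPM) of the granulocyte list were also above 0 in that library alone. In low density library 1, 35 rows reached 5 TPM while staying under 0.5 TPM elsewhere. The 10 genes could not be among them, since each was either above 5 TPM in all libraries or below it in all. This count therefore does not show whether their values in that library were affected.

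**Figure D1:**
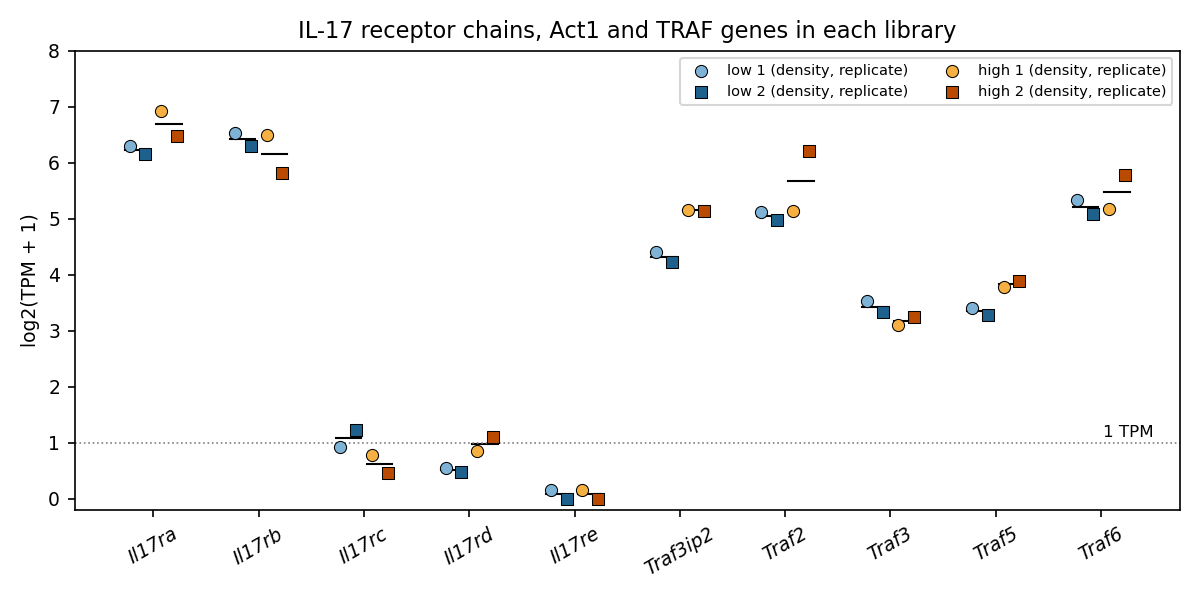
Level of each of the 10 genes in each of the 4 libraries, as log2(TPM + 1); circles are replicate 1, squares replicate 2, blue low and orange high density, and black bars the mean of a group on this scale. Il17ra and Il17rb sit above the adaptors in every library but one, high density library 2, where Traf2 lies above Il17rb, and Il17rc, Il17rd and Il17re lie around or below the dotted line at 1 TPM.

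Il17ra, the common chain, was at 78.0 and 70.4 TPM in the low density libraries and at 120 and 88.0 TPM in the high density libraries. Both high density libraries lay above both low density ones, but they also lay further from each other than the low density pair. Its level exceeded that of 89.2% to 93.6% of all 25630 rows, of which 14694 averaged under 1 TPM. The group means were 74.2 ± 5.32 TPM (SD, n = 2) at low and 104 ± 22.9 TPM (SD, n = 2) at high density, a ratio of 1.41. The log2 fold change, high minus low density, on log2(TPM + 1) was 0.47 ± 0.25 (SE, limma adjusted p = 0.288 over all rows tested), so the difference did not pass the test. Leaving out high density library 1 gave 0.25 (adjusted p = 0.343), leaving out high density library 2 gave 0.69 (adjusted p = 0.0299), with the residual spread of both fits coming from the low density pair, and median centring gave 0.28 (adjusted p = 0.532). In bulk RNA, more cells with a transcript and more transcript per cell cannot be told apart.

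Il17rb, the IL-25 receptor chain, was the other chain with abundant RNA. It was at 91.6 and 77.8 TPM at low density and at 89.6 and 55.2 TPM at high density. The groups overlapped, and high density library 2 was the lowest of the 4. The log2 fold change was −0.26 ± 0.28 (SE, limma adjusted p = 0.622), and its sign rested on that library: leaving it out gave 0.08. Leaving out high density library 1 gave −0.60 with an adjusted p of 0.0451, where high density is a lone library and the spread is that of the low density pair.

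Within a library the ratio of these chains does not depend on how the library was scaled. Il17ra over Il17rb was 0.851 and 0.905 in the low density libraries and 1.34 and 1.59 in the high density libraries. Il17rb was thus the more abundant of the pair at low density and Il17ra at high density, in both libraries of each group. Of the summed TPM of the 5 chains, Il17ra held 45.6% and 47.0% at low against 56.9% and 60.8% at high density. Il17rb held 53.6% and 51.9% at low against 42.3% and 38.1% at high density. The ratio was chosen after the values were seen and is a description with no test.

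Il17rc, the partner needed for IL-17A and IL-17F, was at 0.897 and 1.34 TPM at low density and at 0.727 and 0.383 TPM at high density. Both high density libraries were below both low density ones. Il17ra exceeded it 86.9-fold and 52.5-fold at low against 166-fold and 230-fold at high density. Il17rd, a receptor chain also known to dampen growth factor signalling, was at 0.46 and 0.396 TPM at low and at 0.81 and 1.15 TPM at high density, with no overlap in the opposite direction. Il17re, the IL-17C chain, was at 0.114 TPM in both first replicates and listed at 0 in both second replicates. These 3 chains lay below the filter of a mean of at least 1 TPM and were not tested, so their differences stand as values only.

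**Figure D2:**
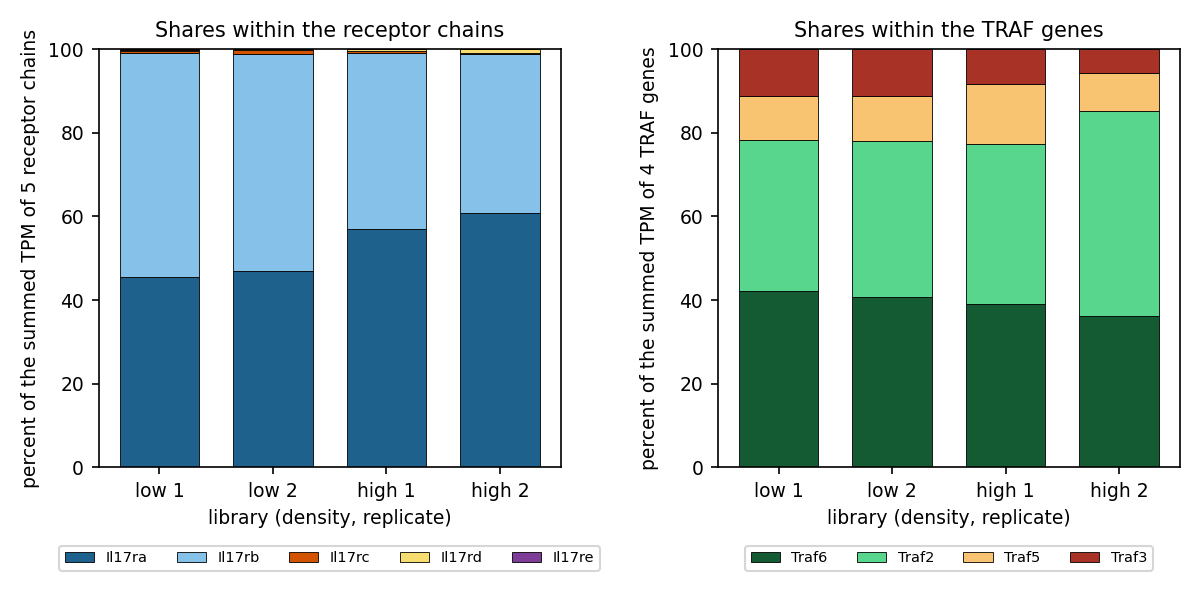
Percent of the summed TPM of the 5 receptor chains (left) and of the 4 TRAF genes (right) held by each gene, 1 bar per library. Il17ra and Il17rb fill nearly the whole left bars, with Il17ra at 45.6% and 47.0% at low against 56.9% and 60.8% at high density; on the right Traf3 holds 11.3% and 11.2% in the low and 8.41% and 5.66% in the high density libraries.

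Traf3ip2 showed the largest difference among the genes tested. It was at 20.3 and 17.7 TPM at low density and at 34.9 and 34.4 TPM at high density. The high density libraries nearly coincided in TPM and lay well above the low density pair. Over all rows tested the median difference of these 2 libraries, replicate 2 minus replicate 1, was 0.27 on the log2 scale. The means were 19.0 ± 1.85 and 34.6 ± 0.305 TPM (SD, n = 2 each), a ratio of 1.83, and the log2 fold change was 0.84 ± 0.27 (SE, limma adjusted p = 0.0816). Median centring gave 0.65 (limma adjusted p = 0.105) and quantile normalisation 0.63 (limma adjusted p = 0.117). Without low density library 1 or 2 the adjusted p was 0.587 and 0.923, and leaving out high density library 1 or 2 gave 0.0219 and 0.024, with log2 fold changes between 0.74 and 0.93. RefSeq places 2 non-coding genes over Traf3ip2, and the sources used here do not say whether reads were counted by strand. The level of one, E130307A14Rik, was 14.5 and 16.4 TPM at low density, and 17.2 and 42.2 TPM in the high density libraries, and that of the other, Gm16364, stayed between 1.77 and 2.45 TPM. Their part in the Traf3ip2 values was not tested.

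Relative to the receptor chains, Traf3ip2 RNA measured 0.26 and 0.251 of Il17ra at low density, against 0.289 and 0.391 at high density. Against Il17rb it was 0.221 and 0.227 at low against 0.389 and 0.623 at high density. The adaptor was in every library less abundant than either of these chains.

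Traf6, the TRAF that links Act1 to NF-κB, was at 39.4 and 33.1 TPM at low density and at 35.0 and 54.2 TPM at high density. The groups overlapped, since high density library 1 lay between the low density libraries. The log2 fold change was 0.27 ± 0.29 (SE, limma adjusted p = 0.621), and −0.04 without high density library 2. Traf2, which serves mRNA stabilisation with Act1 and also TNF receptors, was at 33.8 and 30.3 TPM at low and at 34.2 and 73.4 TPM at high density. Only high density library 2 stood apart, at 2.14 times high density library 1, and 93.3% of rows tested differed less between these libraries on the log2 scale. Its log2 fold change was 0.63 ± 0.34 (SE, limma adjusted p = 0.284) with all libraries. It was 0.09 when high density library 2 was left out and 1.17 (adjusted p = 0.00439) when high density library 1 was.

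Traf5, the other TRAF of the mRNA arm, was at 9.66 and 8.74 TPM at low density and at 12.8 and 13.8 TPM at high density. The groups did not overlap and each pair was tight, with a ratio of means of 1.45. The log2 fold change was 0.49 ± 0.30 (SE, limma adjusted p = 0.347). Traf3, which restrains IL-17 receptor signalling and, with TRAF2, the kinase NIK, was at 10.5 and 9.09 TPM at low and at 7.54 and 8.49 TPM at high density. It was the only gene of the 7 tested whose high density values all lay below the low density ones (log2 fold change −0.26 ± 0.31 SE, limma adjusted p = 0.655). Traf5 and Traf3 were level at low density, with ratios of Traf5 to Traf3 of 0.916 and 0.961, and apart at high density, with ratios of 1.70 and 1.63. The ratio of Traf2 to Traf3 was 3.21 and 3.34 at low against 4.54 and 8.64 at high density. These ratios too were chosen after the values were seen.

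By mean level the order at low density was Il17rb, Il17ra, Traf6, Traf2, Traf3ip2, Traf3, Traf5, Il17rc, Il17rd and Il17re. The ranges of Il17rb and Il17ra, of Traf6 and Traf2, and of Traf3 and Traf5 overlapped, and the other neighbours did not. At high density the order was Il17ra, Il17rb, Traf2, Traf6, Traf3ip2, Traf5, Traf3, Il17rd, Il17rc and Il17re. There neighbours among the first 4 genes overlapped, and from Traf6 downwards neighbours did not overlap.

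Limma called 0 of the 7 tested genes between densities at an adjusted p under 0.05, against 6.68% of the 10936 rows tested (500 higher, 231 lower, 68.4% of calls higher; 51.0% higher with each library centred on its median). At an unadjusted p under 0.05 there was 1 of the 7, Traf3ip2, against 23.5% of all rows tested. The groups did not overlap in 5 of the 7, against 54.7% of all rows tested, a share near the background. Il17ra, Traf3ip2, Traf2 and Traf5 were above and Traf3 below. The median log2 fold change of the 7 was 0.47 and that of all rows tested 0.12. With high density library 1 left out, 3 of the 7 were called (Traf3ip2 and Traf2 higher, Il17rb lower) against 29.9% of all rows. With high density library 2 left out, 2 were called (Il17ra and Traf3ip2, both higher) against 22.1%. Both fits set 1 high density library against the same low density pair, so the residual spread in them comes from this pair, the tighter of the 2. The fits without low density library 1 or 2 set a lone low density library against the high density pair. In them Traf3ip2 had the largest log2 fold change of the 7, 0.93 and 0.74.

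**Figure D3:**
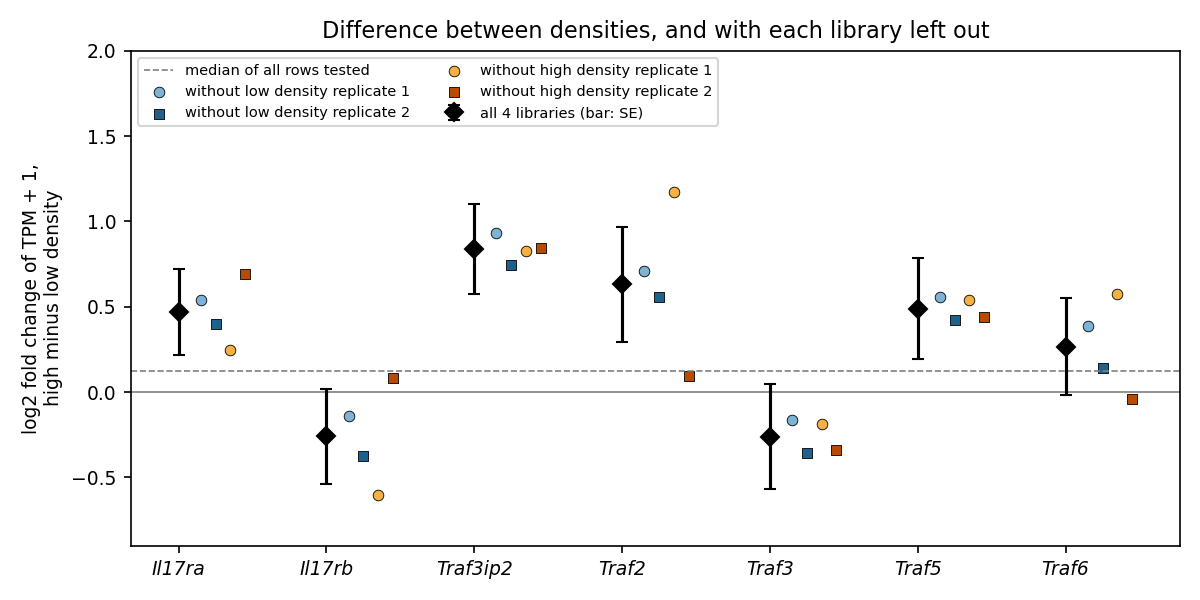
Log2 fold change of TPM + 1, high minus low density, of the 7 genes tested, with all 4 libraries (black diamonds, bars are SE) and with each library left out (coloured points); the dashed line is the median of all rows tested, 0.12. Traf3ip2 stays between 0.74 and 0.93 whichever library is left out, while Traf2 moves between 0.09 and 1.17.

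To place these levels, Il17ra and Il17rb were ranked with 22 other cytokine receptor chains by mean TPM within each density. At low density Il17ra had rank 5 of 24. Above it were Il2rg, the common gamma chain, at 212 TPM, Il12rb2 of the IL-12 receptor at 85.2 TPM, Il17rb at 84.7 TPM and Il2ra, the IL-2 receptor alpha chain, at 84.5 TPM, and below it came Ifngr1, a chain of the interferon gamma receptor, at 53.3 TPM. At high density Il17ra had rank 3, after Il2rg at 194 TPM and Ifngr1 at 109 TPM and before Il17rb at 72.4 TPM, while Il12rb2 and Il2ra were at 46.0 and 44.5 TPM. The ranges of Il17ra and Ifngr1 overlapped at high density. Il12rb2, Il2ra and Ifngr1 did not pass the test (limma adjusted p = 0.0707, 0.0985 and 0.0841). Il1r1 and Il18r1 were listed at 0 in all libraries, and Il23r, whose ligand maintains IL-17 producing cells, averaged 0.00787 TPM.

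Of these other chains 14 were tested and 3 were called, 21.4% against 6.68% of all rows. Il6st, the signal transducer gp130, was at 22.0 and 21.2 TPM at low and at 45.2 and 45.4 TPM at high density (log2 fold change 1.04 ± 0.26 SE, limma adjusted p = 0.035). Il10ra was near 0 at low density, at 0 and 0.062 TPM, and at high density reached 8.33 and 1.95 TPM (limma adjusted p = 0.0218). Il10ra passed the filter only through these high density values, so its call, and the 21.4% that counts it, stand as a description. Il7r, the IL-7 receptor alpha chain, went from 30.5 and 20.9 to 11.7 and 6.44 TPM (log2 fold change −1.43 ± 0.34 SE, limma adjusted p = 0.0294). After centring each library on its median none of these 3 was called (adjusted p = 0.0662, 0.121 and 0.0806). Il6st and Il7r also lost their calls without low density library 1 (0.431 and 0.496) or 2 (0.619 and 0.178). The Il6st call was also lost by limma without the trend (0.052), that of Il7r after rescaling without ribosomal protein genes (0.0522), and that of Il10ra after this rescaling (0.0518) and with a pseudocount of 5 (0.0581).

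**Figure D4:**
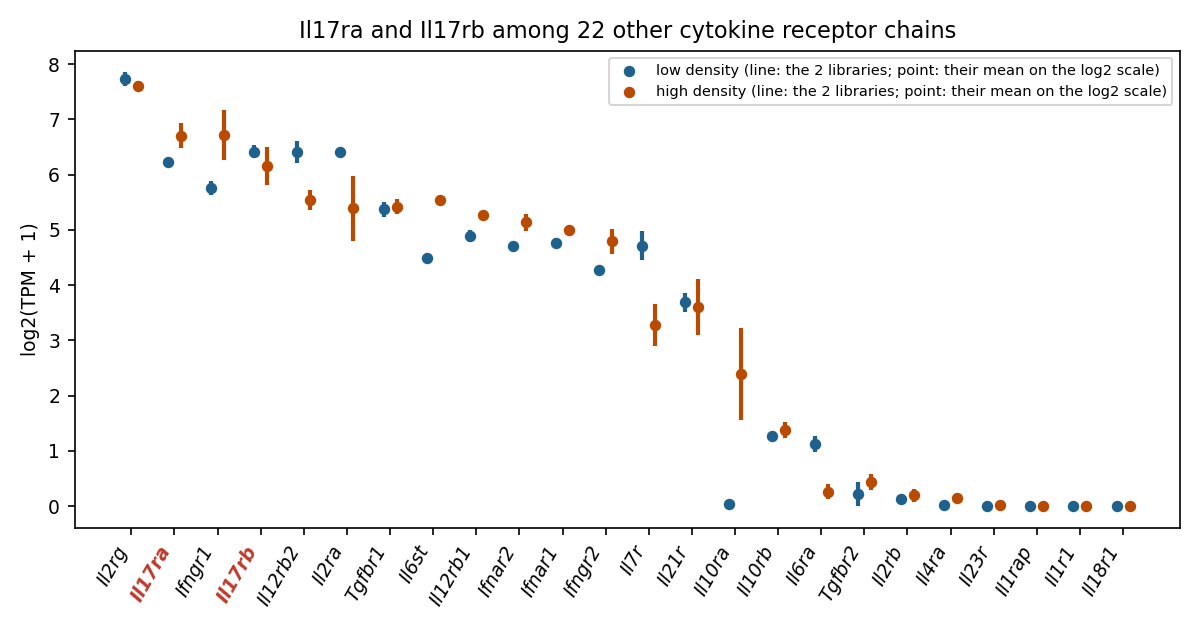
Levels of Il17ra and Il17rb (red names) and 22 other cytokine receptor chains as log2(TPM + 1), ordered by mean TPM over the 4 libraries; a line joins the 2 libraries of a group and the point is their mean on this scale. Il17ra has rank 5 at low and rank 3 at high density, and the chains to the right of Il10ra lie far lower. Il10ra does so at low density only, and at high density its range overlaps those of Il7r and Il21r.

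Other genes of the pathway were read from 7 lists with 57 genes, of which 35 passed the filter and 2 were called, both higher at high density. This share, 5.71%, is near the 6.68% of all rows, and the median log2 fold change of the 35 was 0.13 against 0.12 for all rows. None of the 6 ligand genes passed the filter. Il17a, Il17b and Il25 were listed at 0 in all libraries, Il17f averaged 0.259 TPM, with 0.0668 and 0.552 TPM at low and 0.0665 and 0.35 TPM at high density, and Il17c averaged 0.234 TPM. BEKO cells thus held RNA of both IL-25 receptor chains while the row of Il25 itself stood at 0.

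Of the further TRAF genes, Traf7 and Traf4 were expressed at levels near those of Il17ra and Il17rb. Traf7 averaged 106 TPM (log2 fold change −0.26 ± 0.28 SE, limma adjusted p = 0.632). Traf4, which competes with TRAF6 for Act1, was at 70.0 and 57.0 TPM at low and at 66.1 and 74.7 TPM at high density, with overlap (limma adjusted p = 0.757). Traf1 was under 0.5 TPM in every library. Among 10 ligases and scaffolds that act with TRAFs 0 were called, and the highest levels were those of Rbck1, a subunit of the linear ubiquitin ligase, at 136 TPM, and Ube2v1, a cofactor of the ubiquitin-conjugating enzyme used by TRAF6, at 57.4 TPM. Among 10 genes of the TAK1, IKK and NIK kinases 0 were called, with Tab2, an adaptor of TAK1, at 85.8 TPM and Map3k7, TAK1 itself, at 67.9 TPM. At an unadjusted p under 0.05 there were 7 of the 35 pathway genes, against 23.5% of all rows.

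Restraints of IL-17 signalling were tested in 8 genes, with 1 called. Tnfaip3, which encodes the ubiquitin-editing enzyme A20, was at 12.9 and 8.02 TPM at low and at 38.2 and 26.6 TPM at high density (log2 fold change 1.56 ± 0.32 SE, limma adjusted p = 0.0156). Its groups did not overlap. Usp25, a deubiquitinase of TRAFs, averaged 67.8 TPM (log2 fold change 0.48 ± 0.24 SE, limma adjusted p = 0.266), and Anapc5, a subunit of the anaphase-promoting complex, averaged 487 TPM (−0.57 ± 0.22, adjusted p = 0.137). In the arm of mRNA stability and transcription 4 of 6 genes were tested and 1 was called. This was Nfkbiz, which encodes IκBζ, a coactivator that IL-17 induces, at 2.05 and 2.57 TPM at low and at 14.2 and 7.92 TPM at high density (log2 fold change 1.82 ± 0.37 SE, limma adjusted p = 0.014). Srsf1, an RNA-binding protein of this arm, averaged 361 TPM and Elavl1, which encodes HuR, 62.8 TPM, and neither was called (limma adjusted p = 0.459 and 0.670). Both calls were lost without low density library 1 (Tnfaip3 0.0721, Nfkbiz 0.133), without low density library 2 (0.458 and 0.084) and after median centring (0.0823 and 0.0853). T cell receptor and TNF family signals also induce these genes, and their source was not tested.

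Genes that IL-17 induces in epithelium and stroma were nearly silent. Of 14 listed, 1 passed the filter, S100a9, and only through the 7.36 TPM of low density library 1. Lcn2 (0.923 TPM), Il6 (0.276 TPM) and Cxcl1 (0.083 TPM) were likewise above 0 in that library alone, the one in which Col1a1 was at 30.3 TPM. Mmp13 was at 2.50 and 0.892 TPM at low and at 0.322 and 0.123 TPM at high density. The other target genes were at 0 in all libraries, apart from Csf3, which stayed at or under 0.121 TPM. Of 14 listed genes of the TNF receptor family, 7 were tested and 0 were called, against 6.68% of all rows tested. Their median log2 fold change was 0.29, against 0.12 for all rows tested.

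The rows most like Il17ra over the 4 libraries were sought among 9851 tested rows. The measure was the root mean square difference of log2(TPM + 1) after centring each row on its mean. Left out were predicted genes, microRNAs, small nucleolar RNAs and every symbol that opens with a capital letter and a digit. The last rule can also drop named genes. The rows found for Il17ra follow. They were Rnf181 (0.0208), Ech1 (0.0225), Nckap1l (0.0242), Rassf2 (0.0251) and Brd8 (0.0299). For Traf3ip2 they included Hes6 (0.013), Sigirr (0.0238), Vamp1 (0.0253) and Zkscan17 (0.0283). With 4 libraries such likeness is common, and 149 rows lay within 0.1 of Il17ra and 220 within 0.1 of Traf3ip2.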

How the data were processed

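RNA of 4 libraries of BEKO cells was measured, 2 per density. Per the labels' protocols, RNA was column-purified and made into strand-specific libraries. The authors deposited 1 table of TPM values with a column per library, which the sample's label names. The submitters' processing notes name mm9 and DESeq2 1.2.10 without a role. Aligner, counter and annotation: not given in the sources used here. TPM keeps no depth, so no counting interval is given.

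The 10936 rows averaging at least 1 TPM were tested on log2(TPM + 1), a scale that understates changes of low genes, with limma 3.58.1 in R 4.3.3 (group term, trend, two-sided, Benjamini-Hochberg over all rows tested, call at an adjusted p under 0.05). The fit was tested on simulated data. With 2 libraries against 2 an exact permutation test cannot go below p = 0.333, so none was run. The members and lists were chosen with earlier results of these data known. Named were all 10 members, called pathway and receptor genes, up to 2 uncalled genes of highest mean per pathway list, the 3 cytokine receptor chains nearest Il17ra in mean on either side (only Il2rg lay above), and the 5 rows of most like pattern, of which 1 is not reported here. Other genes named were picked after their values were seen. The alternatives were 14: 2 pseudocounts, 2 filters, 3 scalings, 2 forms of moderation, a replicate block, and each library left out, keeping the rows tested.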

Additional observations from a re-analysis of the deposited data

How the results depend on the processing

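The count of the 7 tested genes called was 0 under all alternatives that kept the 4 libraries, and between 0 and 3 with a library left out. Il17ra, Traf3ip2, Traf2, Traf3 and Traf5 kept their direction under all 14 alternatives, but most of these could not have changed it. Filters, moderation and the block leave a fold change as it is. As the groups of these genes did not overlap, a pseudocount or a left-out library could not turn the sign either. Only the 3 scalings could, and under them the direction held. Il17rb and Traf6 turned without high density library 2: left-out values ran from −0.603 to 0.0846 for Il17rb and from −0.0427 to 0.574 for Traf6. Rows called numbered 731 with the settings of the report, 0 without the filter (2565 at an unadjusted p under 0.05), 314 after median centring, 360 after quantile normalisation, and 233 (without low density library 2) to 3270 (without high density library 1) with a library left out. Pathway genes called numbered 2, and 0 without the filter, after median centring and after quantile normalisation, and 0 (without low density library 1) to 12 (without high density library 1) with a library left out. Causes were not tested. Replicate numbers are shared between groups, but deviations of same-numbered libraries were nearly uncorrelated across rows (r = 0.0416). With the replicate block 937 rows, 0 members and 4 pathway genes were called, and Il6st was not (adjusted p = 0.0541). Il17rd, fitted without the filter, had a limma adjusted p of 0.454. Having 2 libraries per group and no known depth limits every comparison, most for Il17rc, Il17rd and Il17re.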
